A study of Homo sapiens and Mus musculus with 18 samples.

Results

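The genes that make ribosomes were followed in 2 human pancreatic cancer lines with and without high expression of KRT17. That gene encodes keratin 17 (K17), a cytoskeletal filament protein of basal epithelium. They are 38 listed genes of RNA polymerase I, of the nucleolus and of subunit assembly, chosen by name. Of these, 36 have a row among the 34505 rows of the human files, and all 36 were tested in every comparison. RRP9 and LTV1 have no row there and were used only for their promoter windows. By role, 7 listed genes belong to RNA polymerase I and its factors, 6 encode multifunctional nucleolar proteins, 3 belong to the box C/D and 3 to the box H/ACA small nucleolar ribonucleoproteins (snoRNPs), 11 to the small subunit pathway and 8 to large subunit assembly.

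Ribosome production starts in the nucleolus, where RNA polymerase I transcribes the ribosomal DNA repeats into 1 long precursor RNA. Box C/D snoRNPs guide methylation and box H/ACA snoRNPs guide pseudouridine formation in that precursor, while the small subunit processome and the large subunit assembly factors fold and cut it together with ribosomal proteins. The pathway takes a large share of the biosynthetic effort of growing cells, and MYC is a known activator of many of its genes.

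The 4 groups used had 3 libraries each. L3.6 cells, from a pancreatic adenosquamous carcinoma, were compared as K17 knockout cells made with CRISPR-Cas9 and as wild-type cells. PANC-1 cells, from a pancreatic ductal adenocarcinoma, were compared as cells carrying K17 and as cells carrying the empty vector. Neither the promoter of the K17 construct nor the number of clones is given in the sources used here, and clone or culture cannot be told apart from K17. Nothing in the labels states that libraries of a group are separate cultures, so each p-value reads only the spread between these libraries, which may be technical. Cells are counted together in bulk RNA, so fewer cells with a transcript and less transcript per cell cannot be told apart. Fold changes are log2, knockout minus wild type in L3.6 and K17 minus empty vector in PANC-1, so K17 is on opposite sides of the difference in the 2 lines.

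Library totals ran from 9485257 to 15476629 counts in L3.6 and from 59671178 to 70789559 in PANC-1. KRT17 followed the labels, with 13.5, 12.9 and 11.9 CPM (counts scaled to the library total) in L3.6 knockout libraries against 91.1, 104 and 103 CPM in wild type. It had 157, 187 and 167 CPM in PANC-1 K17 libraries against 0.0327, 0 and 0 CPM with the empty vector. PANC-1 empty vector replicate 2 stood apart: its score on the first principal component was -132, against 22.2 to 30.8 in the other 5 PANC-1 libraries, and mitochondrial DNA genes took 18.8% of its counts against 9.88% to 10.8%. L3.6 wild-type replicate 1 scored -5.43, below the 23.6 to 60.3 of knockout and above the -61.5 and -58.3 of wild-type replicates 2 and 3.

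Markers of cell types were read beside these groups. The 6 epithelial markers summed to 3316 to 3644 CPM in L3.6 knockout libraries against 2772 to 3126 CPM in wild type, and to 1135 to 1192 CPM in PANC-1 K17 libraries against 1063 to 2178 CPM with the empty vector. KRT19 and KRT7 passed the test as higher in L3.6 knockout cells, and KRT8 in PANC-1 K17 cells without empty vector replicate 2. The 5 squamous markers with a row, whose defining genes TP63 and S100A2 were higher in L3.6 knockout cells, summed to 1210.4 to 1281 CPM there against 832 to 984 CPM in wild type, with KRT6A at 0, and to at most 10.7 CPM in PANC-1. The 5 fibroblast markers summed to 31.9 to 36.9 CPM in L3.6 knockout libraries against 27.3 to 34.8 CPM in wild type, and to 9.69 to 11.7 CPM in PANC-1 K17 libraries against 21 to 36.7 CPM with the empty vector. COL3A1 was lower in PANC-1 K17 cells with and without replicate 2 (log2 fold change -2.84 and -2.92), and THY1 without it (-0.89). The 4 endothelial markers summed to 3.07 to 3.55 CPM in L3.6 knockout libraries against 7.56 to 11 CPM in wild type, where PECAM1 was lower in knockout cells (-1.40), and to at most 3.32 CPM in PANC-1. The 5 immune markers, with CD3E at 0 throughout, summed to at most 5.39 CPM in L3.6, and to 38.5 to 46.8 CPM in PANC-1 K17 libraries against 40.5 to 62.7 CPM with the empty vector, most of it CD68, with CD79A higher in K17 cells without replicate 2. With empty vector replicate 2 left out, the epithelial sums were 1135 to 1192 CPM in K17 libraries against 1063 to 1068 CPM with the empty vector, with fold changes above 0 in 6 of 6 markers and a median of 0.22. The endothelial sums were then also higher, 1.33 to 1.46 CPM in K17 libraries against 0.953 to 1.14 CPM. The squamous sums were lower, 4.57 to 4.87 CPM in K17 libraries against 4.9 to 5.85 CPM, as were the fibroblast sums, 9.69 to 11.7 CPM against 21 to 21.7 CPM. The immune sums overlapped, with 38.5 to 46.8 CPM in K17 libraries against 40.5 to 40.9 CPM. The part of these markers in the results was not tested.

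The start regions of the genes give a first look at what the group shares beyond its role. RefSeq promoter windows (GRCh38.p14), from 250 bases before to 50 after a transcript's start, were at hand for 31 of the 38 genes, as 38 windows. The letters CACGTG, the E-box that MYC with its partner MAX and related factors can bind, were in 15 windows of 15 genes, or 39.5% of windows, against 7.26% of all 35116 windows of that table. Of the 16 copies, 15 began between 31 bases before and 35 bases after the start. Of the 5 genes that carry 1 copy and passed a test described below, 4 are shown, since BYSL, the other, has few counts. Capitals mark CACGTG.
FBL (chr19:39846330-39846629, minus strand): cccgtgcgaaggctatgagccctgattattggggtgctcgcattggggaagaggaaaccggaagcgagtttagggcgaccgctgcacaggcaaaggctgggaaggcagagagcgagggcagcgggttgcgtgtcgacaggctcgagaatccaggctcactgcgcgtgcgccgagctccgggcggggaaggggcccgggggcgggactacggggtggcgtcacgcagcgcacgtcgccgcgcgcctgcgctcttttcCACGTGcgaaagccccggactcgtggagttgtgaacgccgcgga
GNL3 (chr3:52685782-52686081, plus strand): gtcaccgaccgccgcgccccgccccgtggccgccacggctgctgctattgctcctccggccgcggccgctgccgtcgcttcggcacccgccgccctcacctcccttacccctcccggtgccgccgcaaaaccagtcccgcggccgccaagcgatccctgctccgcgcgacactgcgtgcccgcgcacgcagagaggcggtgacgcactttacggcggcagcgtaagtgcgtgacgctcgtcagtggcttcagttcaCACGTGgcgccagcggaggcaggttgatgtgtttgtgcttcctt
NOC3L (chr10:94362890-94363189, minus strand): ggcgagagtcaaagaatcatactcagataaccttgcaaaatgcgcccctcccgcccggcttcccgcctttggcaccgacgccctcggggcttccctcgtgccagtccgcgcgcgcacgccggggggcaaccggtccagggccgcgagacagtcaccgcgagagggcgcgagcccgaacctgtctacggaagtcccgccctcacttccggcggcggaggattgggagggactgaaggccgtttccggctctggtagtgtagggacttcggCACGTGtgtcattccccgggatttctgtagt
PES1 (chr22:30591861-30592160, minus strand): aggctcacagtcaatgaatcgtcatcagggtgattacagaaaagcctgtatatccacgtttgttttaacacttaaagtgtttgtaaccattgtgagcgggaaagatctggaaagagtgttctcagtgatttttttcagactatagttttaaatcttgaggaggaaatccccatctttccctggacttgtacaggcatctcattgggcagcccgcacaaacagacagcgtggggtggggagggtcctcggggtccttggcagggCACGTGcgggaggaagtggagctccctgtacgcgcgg

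In those windows the E-box begins 6 bases after the start in FBL and GNL3, 13 in PES1 and 19 in NOC3L. CCGGAAGT, the letters of an ETS site, was in 26.3% of the members' windows against 4.14% of all windows. The NRF1 palindrome was in 5.26% against 1.24%, AAGATGGCG (YY1) in 2.63% against 1.75%, and the palindrome known from ZBTB33 binding in 2.63% against 0.424%. All 5 motifs were searched on both strands, and no copy shared letters with a copy of another motif. The NOC3L window holds CACGTG and CCGGAAGT. UTP18 holds 2 copies of CACGTG, 89 bases before and 4 after its start. These are counts of letters, and no binding was measured.

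Levels differed widely among the 36 genes. Per kilobase of annotated exon, NPM1 (nucleophosmin, a histone and ribosomal protein chaperone) stood highest, with 1126 CPM per kb in L3.6 and 1065 in PANC-1 without empty vector replicate 2. NOLC1, which escorts snoRNPs, followed in PANC-1 with 200.2 CPM per kb, then FBL, the box C/D methyltransferase, with 192, and NCL (nucleolin) with 147. In L3.6 the order behind NPM1 was NHP2, a box H/ACA core protein, with 121 CPM per kb, NOLC1 with 113 and NCL with 79.2. UTP20 and BOP1 were lowest in both lines, with 0.130 and 0.393 CPM per kb in L3.6 and 0.0843 and 0.228 in PANC-1. POLR1E, UTP20, BYSL and BOP1 averaged below 5 CPM in each of the 4 groups. Which reads a row counts is not known in full, so such low values need not be low expression.

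Summed over the 36 genes, PANC-1 K17 libraries held 8858, 8901 and 8614 CPM against 10188, 12366 and 9605 CPM with the empty vector. All 3 K17 sums lay below all 3 empty vector sums, and empty vector replicate 2 was the highest of all. In L3.6 the sums were 8204, 8699 and 8629 CPM in knockout libraries against 8777, 8077 and 7276 CPM in wild type, so the groups overlapped. Without NPM1, the largest part of these sums, the PANC-1 libraries held 4878, 4877 and 4787 CPM with K17 against 5739, 6497 and 5500 CPM with the empty vector, again with no overlap.

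**Figure D1:**
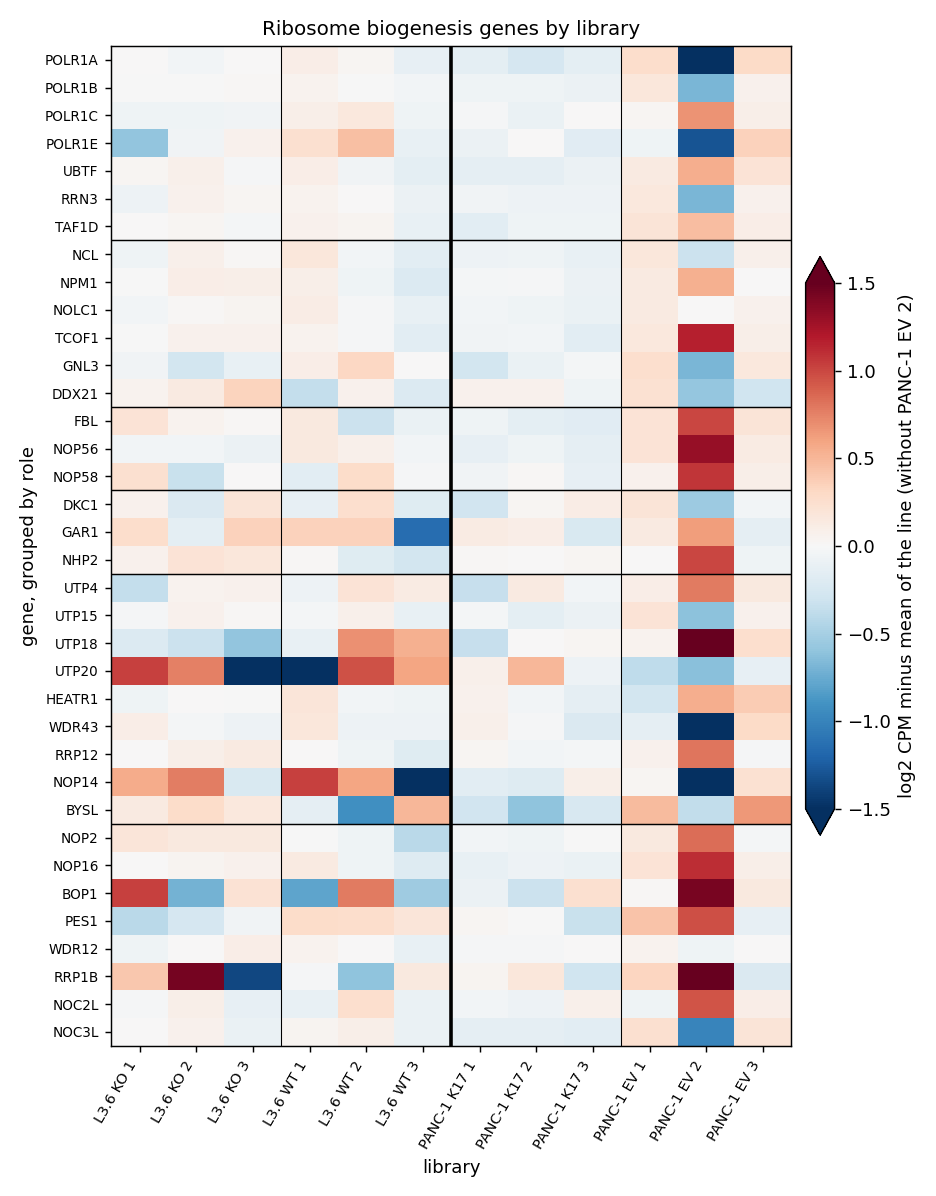
Level of each of the 36 genes in each of the 12 libraries as log2 CPM minus the mean of its line, where the PANC-1 mean leaves out empty vector replicate 2. Rows are grouped by role, colours are capped at 1.5 in both directions, and the column of PANC-1 empty vector replicate 2 differs from its neighbours in both directions while the other PANC-1 columns differ less.

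With all 6 PANC-1 libraries, none of the 36 genes passed edgeR's quasi-likelihood test at a Benjamini-Hochberg adjusted p of 0.05, where 0.644% of all genes tested did. DESeq2 and limma-voom also called 0 of them. At an unadjusted p below 0.05 there were 2, UBTF and FBL, with fold changes below 0, against 10.0% of all genes. The median fold change of the 36 was -0.25, with 25 below 0, against a median of 0.01 and 48.8% below 0 over all genes tested. In 11 of the 36 the K17 libraries all lay below the empty vector libraries (13.1% of all genes), and in 1, UTP20, all lay above (12.2% of all genes). The 36 genes did not move together in empty vector replicate 2. Against the mean of the other empty vector libraries it was at least 2-fold off in 11 of them, 6 above and 5 below, or 30.6%, against 32.6% of all 17583 genes compared. The range ran from -2.95 for NOP14, a processome protein, to 2.94 for RRP1B, a nucleolar protein of large subunit assembly.

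Without empty vector replicate 2, 15 of the 36 genes were lower in PANC-1 K17 cells and 0 were higher. Over all genes tested, 9.25% were lower and 11.4% higher. The falls were small, from 10.2% for NOLC1 to 48.9% for BYSL, with a median of 15.1%. All 15 had K17 libraries below both empty vector libraries. Of all 36, 20 had such a gap downwards (24.4% of all genes) and 2 upwards (23.7% of all genes). Fold changes were below 0 in 32 of 36, with a median of -0.17, against 49.0% and a median of 0.01 over all genes tested. Genes counted more deeply passed more often: 11 of the 14 members above 100 CPM were called lower and 4 of the 22 at or below, while of all 2296 genes above 100 CPM 31.5% were lower and 19.3% higher. The library left out decided these calls, since none was made with it and 4 of the 15 (POLR1A, POLR1B, RRN3 and UTP15) then had a fold change above 0. With empty vector replicate 1 also left out 8 members passed, 7 of them among the 15 (POLR1A, UBTF, NCL, FBL, NOP56, NOP16 and NOC3L), and in 1 fit with both lines 2 did, POLR1A and NOC3L.

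RNA polymerase I and its factors had the highest share, 5 of 7. POLR1A, the catalytic subunit, had 106, 98.1 and 105 CPM in K17 libraries against 140.4, 22.3 and 143 CPM with the empty vector. The K17 libraries lay below empty vector replicates 1 and 3 and above replicate 2. Without that replicate its fold change was -0.45, standard error (SE) 0.0424 (edgeR adjusted p = 0.000541), and with it 0.04, SE 0.665 (edgeR adjusted p = 0.986). POLR1B, the other large subunit of the active centre, had 115, 115 and 113 CPM in K17 libraries against 136, 75.3 and 127 CPM with the empty vector. Here too replicate 2 lay below all others, and without it the fold change was -0.19, SE 0.0344 (edgeR adjusted p = 0.00931).

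UBTF, the factor that binds along the active ribosomal DNA, had 205, 204 and 211 CPM in K17 libraries against 247, 325 and 258 CPM with the empty vector. All 3 K17 libraries were below all 3 empty vector libraries. The fold change was -0.28, SE 0.0357, without replicate 2 (edgeR adjusted p = 0.00205) and -0.36, SE 0.132, with it (edgeR adjusted p = 0.44). TAF1D, a subunit of the SL1 promoter complex, had 332, 353 and 356 CPM in K17 libraries against 422, 511 and 396 CPM with the empty vector, and its groups did not overlap either. Its fold change was -0.22, SE 0.0408, without replicate 2 (edgeR adjusted p = 0.00923) and -0.29, SE 0.131, with it (edgeR adjusted p = 0.55).

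RRN3, which joins the polymerase to the promoter, had 168, 165 and 165 CPM in K17 libraries against 194, 109 and 181 CPM with the empty vector. Without replicate 2 the fold change was -0.16, SE 0.0326 (edgeR adjusted p = 0.0129). The 3 rows of RRN3 pseudogenes hold 14% of the counts of RRN3 and these rows together, and RRN3 overlaps PDXDC1 on the other strand, so its counts are uncertain. POLR1C, a subunit shared with RNA polymerase III, had a fold change of -0.09 and POLR1E of -0.23, and neither passed the test.

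**Figure D2:**
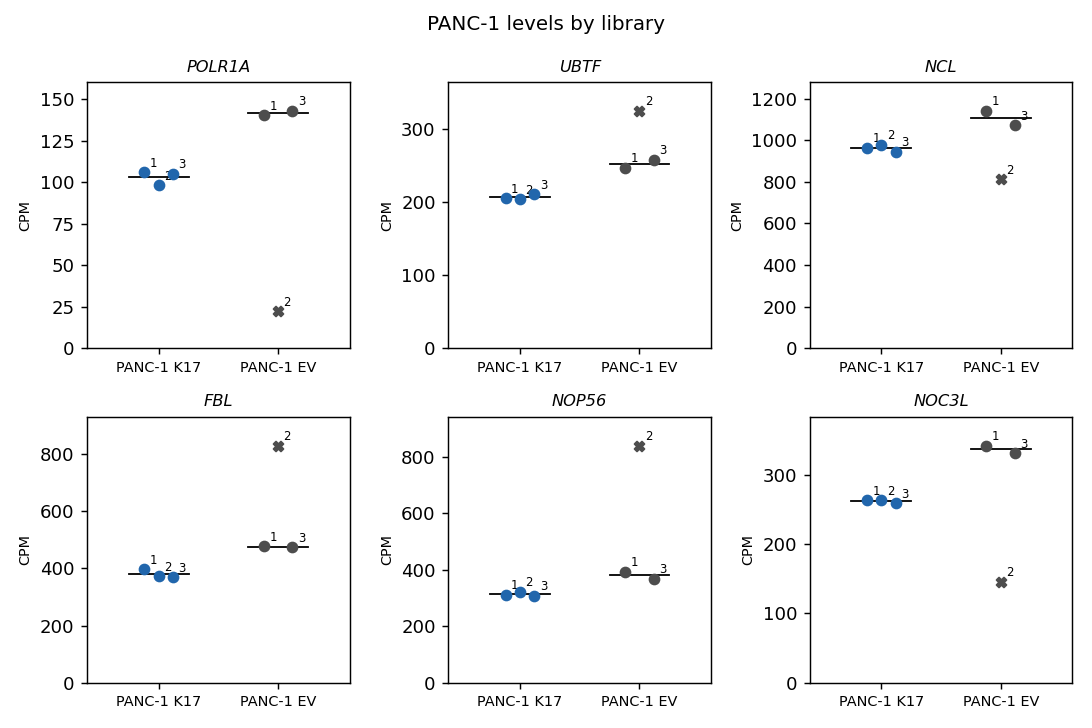
CPM of 6 genes in each PANC-1 library, K17 left and empty vector right, numbered by replicate. Crosses are empty vector replicate 2 and lines are group means without it. The K17 libraries lie below empty vector replicates 1 and 3 in all 6 genes, and replicate 2 lies below the K17 libraries in POLR1A, NCL and NOC3L and above them in UBTF, FBL and NOP56.

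Among the multifunctional nucleolar proteins 4 of 6 were lower without that replicate. NCL, which packs and escorts precursor RNA, had 965, 979 and 945 CPM in K17 libraries against 1142, 814 and 1073 CPM with the empty vector. Replicate 2 was the lowest of the 6 libraries, and the fold change without it was -0.19, SE 0.0292 (edgeR adjusted p = 0.0045). NOLC1 had 771, 761 and 740.4 CPM in K17 libraries against 871, 793 and 829.5 CPM with the empty vector, with no overlap between groups. Its fold change was -0.16, SE 0.0275, without replicate 2 (edgeR adjusted p = 0.00823) and -0.08, SE 0.138, with it (edgeR adjusted p = 0.855).

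TCOF1 (treacle), a scaffold that works with UBTF and NOLC1, had 232, 234 and 215 CPM in K17 libraries against 267, 542 and 256 CPM with the empty vector. The groups did not overlap, and replicate 2 was by far the highest. Its fold change was -0.19, SE 0.0391, without that replicate (edgeR adjusted p = 0.0139). GNL3 (nucleostemin), a GTPase of dividing cells, had 41.3, 46.4 and 48.8 CPM in K17 libraries against 59.3, 30.8 and 55.6 CPM with the empty vector. Its fold change was -0.32, SE 0.0756, without replicate 2 (edgeR adjusted p = 0.0258), and the call was lost when empty vector replicate 1 or 3 or K17 replicate 2 was also left out. NPM1 had 3979.5, 4024 and 3827 CPM in K17 libraries against 4449.6, 5869 and 4105 CPM with the empty vector. It did not pass in the main edgeR fit without replicate 2 (fold change -0.11, SE 0.0348, edgeR adjusted p = 0.0795). Without that replicate NPM1 passed as lower with upper-quartile factors, no filter, DESeq2 and replicate number as a block. With RLE factors, the filter of 1 CPM in 3 libraries, limma-voom and the joint fit of both lines it did not pass. The RNA helicase DDX21 had a fold change of 0.05, SE 0.161.

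The box C/D proteins had 2 of 3 lower. FBL had 396, 373 and 369 CPM in K17 libraries against 476, 828 and 473 CPM with the empty vector. The groups did not overlap, and the fold change was -0.31, SE 0.034, without replicate 2 (edgeR adjusted p = 0.00103) and -0.57, SE 0.221, with it (edgeR adjusted p = 0.473). NOP56, which holds the guide RNA together with NOP58, had 312, 322 and 309 CPM in K17 libraries against 393, 839.9 and 368 CPM with the empty vector. Its fold change was -0.26, SE 0.0325, without replicate 2 (edgeR adjusted p = 0.00174) and -0.68, SE 0.307, with it (edgeR adjusted p = 0.545). NOP58 had a fold change of -0.12 and did not pass, with a 95% interval from -0.27 to 0.03.

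None of the box H/ACA proteins passed. NHP2 had 86.9, 86.3 and 87 CPM in K17 libraries against 85.6, 171 and 81.8 CPM with the empty vector, a fold change of 0.06 with an interval from -0.02 to 0.14. Only replicate 2 stood away from the others. DKC1, the pseudouridine synthase, had a fold change of -0.11 (interval -0.44 to 0.23) and GAR1 of 0.00 (-0.32 to 0.33), intervals that hold falls as large as those of the box C/D genes.

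Of the 9 small subunit genes with a row, 2 were lower. UTP15, part of the processome arm that joins the nascent precursor, had 49.1, 45.2 and 47.2 CPM in K17 libraries against 57.5, 32.8 and 52.8 CPM with the empty vector. Its fold change was -0.21, SE 0.0539, without replicate 2 (edgeR adjusted p = 0.0323). The UTP15 call was lost when empty vector replicate 1 or 3, or K17 replicate 2 or 3, was also left out. BYSL (bystin), needed late in small subunit maturation, had 0.86, 0.68 and 0.888 CPM in K17 libraries against 1.5, 0.808 and 1.69 CPM with the empty vector. Its fold change of -0.97, SE 0.215, without replicate 2 (edgeR adjusted p = 0.0204) rests on at most 96 counts in any library, and it was filtered out where at least 1 CPM in 3 libraries was required. The BYSL call was lost when empty vector replicate 1 or 3, or K17 replicate 2, was also left out. RRP12, which takes part in export of the particles, was measured more closely and had 104, 98.9 and 99.6 CPM in K17 libraries against 106, 177 and 100.4 CPM with the empty vector, a fold change of -0.02 with an interval from -0.11 to 0.07. UTP4, UTP18, HEATR1, WDR43 and NOP14 had fold changes from -0.24 to -0.12, and UTP20 of 0.47, SE 0.275.

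Of the 8 large subunit genes 2 were lower. NOC3L, which forms a complex with NOC2L on large subunit particles, had the lowest p of all members. It had 263, 263 and 259 CPM in K17 libraries against 342, 146 and 331 CPM with the empty vector. Its fold change was -0.35, SE 0.0247, without replicate 2 (edgeR adjusted p = 0.000172) and -0.02, SE 0.36, with it (edgeR adjusted p = 0.984). NOP16 had 69.4, 70.6 and 69.7 CPM in K17 libraries against 86.1, 162 and 79.9 CPM with the empty vector, and its groups did not overlap. The fold change of NOP16 was -0.24, SE 0.0394, without replicate 2 (edgeR adjusted p = 0.00641). NOC2L, the partner of NOC3L, had a fold change of -0.01 with an interval from -0.20 to 0.17. The PeBoW complex, which trims the precursor of the large subunit RNA, is made of PES1, BOP1 and WDR12. PES1 had a fold change of -0.26 (interval -0.77 to 0.24), BOP1 of -0.12 (-0.73 to 0.49) and WDR12 of -0.03 (-0.09 to 0.04), and WDR12 had the narrowest interval of these. NOP2, an RNA methyltransferase, had a fold change of -0.09 and RRP1B of -0.08, and neither passed.

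**Figure D3:**
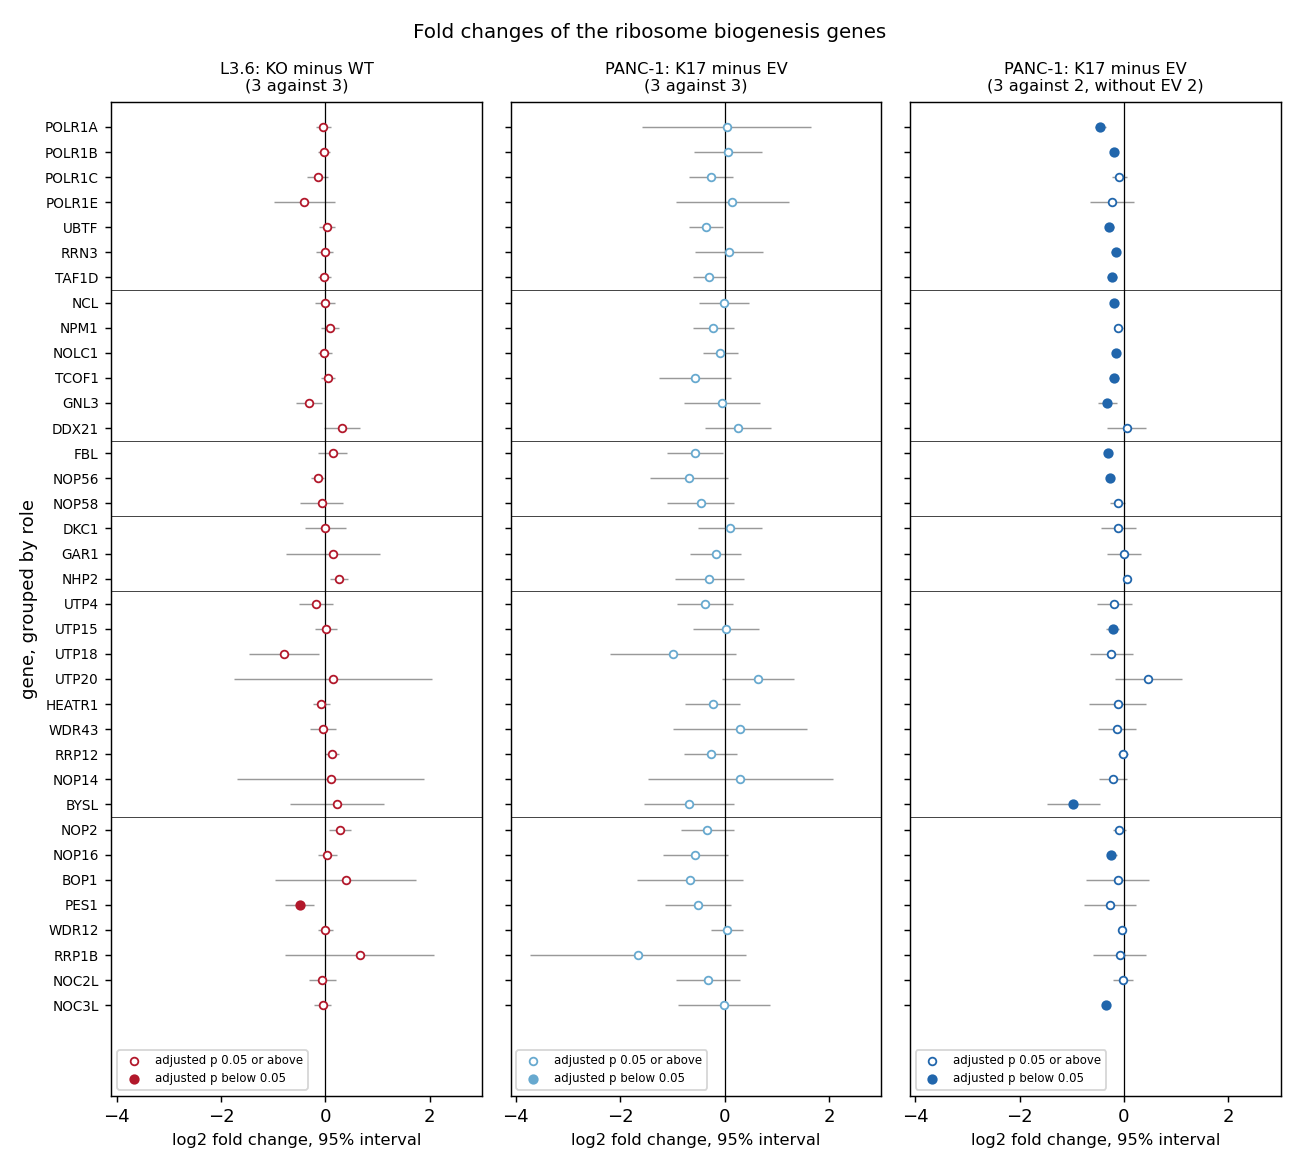
Fold change of each of the 36 genes in L3.6 (left), in PANC-1 with all 6 libraries (middle) and in PANC-1 without empty vector replicate 2 (right), with bars of the 95% interval. Filled points passed edgeR's test at an adjusted p of 0.05, which were 1, 0 and 15 genes, and the bars of the middle panel are the widest in most rows.

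In L3.6 the same genes showed little difference with K17 knockout. Of the 36, 1 was lower and 0 higher, where 3.51% of all genes tested were lower and 6.10% higher. At an unadjusted p below 0.05 there were 6 members, 4 of them with fold changes below 0, against 27.7% of all genes. The median fold change was 0.00, with 18 above and 18 below 0, where 50.7% of all genes were below 0. That split moved with the setting, to 13 above and 23 below 0 with upper-quartile factors, 24 and 12 without a filter on low counts, 11 and 25 without wild-type replicate 3, and 23 and 13 without wild-type replicate 1. Among the 13 members above 100 CPM in L3.6, the largest fold change in either direction was 0.28, and no 95% interval reached more than 0.21 to either side of its fold change. POLR1A had a fold change of -0.04 (interval -0.18 to 0.10), UBTF of 0.03 (-0.12 to 0.18), NCL of -0.01 (-0.19 to 0.18) and NOC3L of -0.05 (-0.21 to 0.10).

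PES1 was the member that passed, with 12.9, 14.3 and 16.6 CPM in knockout libraries against 20.6, 20.4 and 19.3 CPM in wild type. The groups did not overlap, and the fold change was -0.49, SE 0.122 (edgeR adjusted p = 0.0426), a fall of 28.7%. The call was close to the threshold. It was lost when any of the 6 libraries was left out, with adjusted p from 0.0573 to 0.15 and fold changes from -0.59 to -0.41, and adjusted p over all alternatives ran from 0.0241 to 0.397. Its partners in the PeBoW complex did not pass: WDR12 had a fold change of 0.00 (interval -0.14 to 0.14) and BOP1 of 0.39 (-0.96 to 1.74).

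The next members by p did not pass in the main edgeR fit with all 6 libraries. Under other settings with the same libraries, NHP2 passed with DESeq2 and without a filter on low counts, and NOP56 with upper-quartile factors. NHP2 had 190.1, 207 and 203 CPM in knockout libraries against 184, 160 and 149 CPM in wild type, a fold change of 0.26, SE 0.0755 (edgeR adjusted p = 0.0709). NOP2 had 122, 119 and 119 CPM in knockout libraries against 107, 102 and 81.5 CPM in wild type, a fold change of 0.28, SE 0.0924 (edgeR adjusted p = 0.0955). In both genes every knockout library lay above every wild-type library, and wild-type replicate 1 was the nearest to them.

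GNL3 had 25.5, 21.9 and 24.5 CPM in knockout libraries against 28.4, 32.8 and 26.6 CPM in wild type (fold change -0.31, SE 0.112, edgeR adjusted p = 0.119). UTP18, a processome protein, had 2.68, 2.47 and 2.05 CPM in knockout libraries against 2.86, 5.04 and 4.49 CPM in wild type (-0.80, SE 0.29, edgeR adjusted p = 0.122). NOP56 had 134, 134 and 129.7 CPM in knockout libraries against 153, 146 and 135 CPM in wild type (-0.15, SE 0.058, edgeR adjusted p = 0.141). In these genes and PES1 the knockout libraries lay below the wild-type libraries without overlap, 4 members in all (13.7% of all genes), and NHP2 and NOP2 were the 2 above (19.5% of all genes). Without wild-type replicate 1, the library that scored between the groups, NHP2 and NOP2 passed as higher and UTP18 as lower, 3 in all, and PES1 did not pass. The single row AC010970.1 took 13.5% and 14.1% of the counts of wild-type replicates 2 and 3. It took 6.05% in wild-type replicate 1 and 4.34% to 6.96% in knockout libraries. With all L3.6 libraries kept and that row removed, PES1 was the only member called (edgeR adjusted p = 0.0446). The part of that row in these 3 calls, made without wild-type replicate 1, was not tested.

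Some members varied more within a group than between groups. NOP14 had 1.66 CPM in wild-type replicate 3 against 23.2 and 17.2 CPM in the other wild-type libraries, and GAR1 had 17.1 CPM there against 48.2 and 47.8 CPM. Their intervals, -1.69 to 1.89 and -0.75 to 1.04, leave a 2-fold difference of NOP14 in either direction undetectable.

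**Figure D4:**
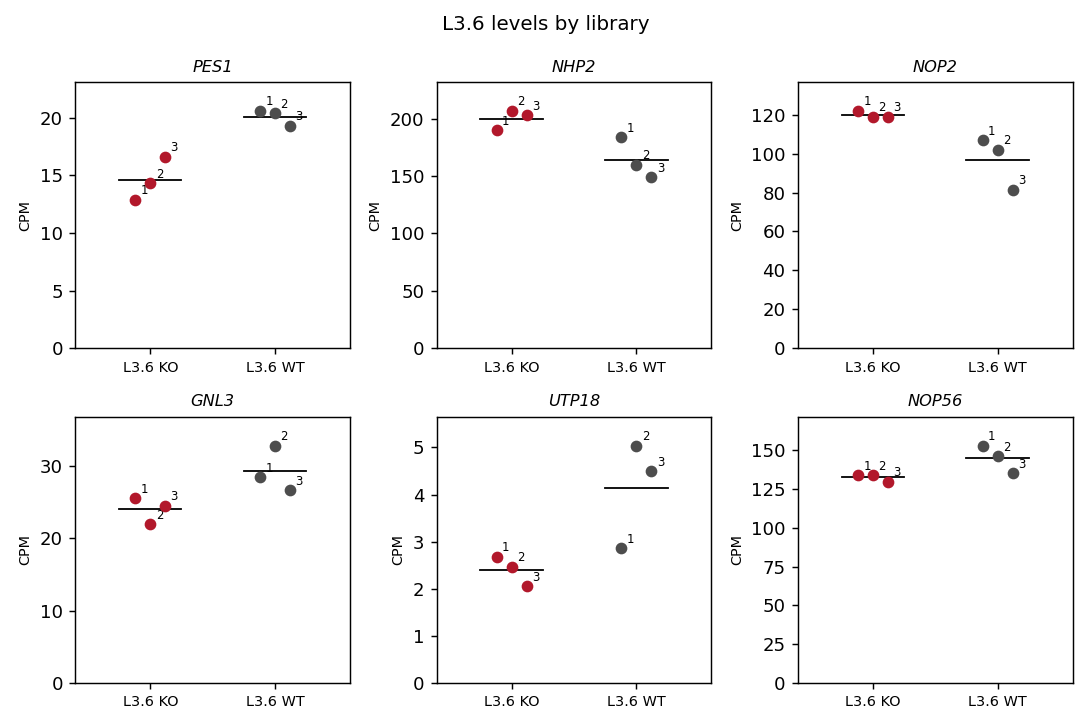
CPM of 6 genes in each L3.6 library, knockout left and wild type right, numbered by replicate, with lines at the group means. PES1, the gene that passed, has all knockout libraries below all wild-type libraries, as do GNL3, UTP18 and NOP56, while NHP2 and NOP2 have them above.

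The difference of the K17 effects between lines was tested over the 12 human libraries in 1 fit, as K17 minus empty vector in PANC-1 minus wild type minus knockout in L3.6. With all libraries none of the 36 genes passed, where 1.54% of all genes did, DESeq2 called 0 and 4 members had an unadjusted p below 0.05, against 14.7% of all genes. Without PANC-1 empty vector replicate 2, POLR1A (difference -0.42, SE 0.113, edgeR adjusted p = 0.0348) and GNL3 (-0.56, SE 0.143, edgeR adjusted p = 0.0271) passed, both with a difference below 0, where 2.82% of all genes did so and 11.5% passed in either direction. GNL3 was below in PANC-1 K17 cells and in L3.6 knockout cells, so its fold changes of -0.32 and -0.31 point to opposite sides with respect to K17. The GNL3 gene overlaps PBRM1 on the other strand, with a median of 6831.5 counts per library against 1097 for GNL3, and the strand setting of the counting is not given in the sources used here. For the other 13 genes that were lower in PANC-1, a difference between lines was not shown. Of the 15, 9 had a fold change below 0 in L3.6 knockout cells and 6 above.

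Levels of the lines were set side by side with no test. Between L3.6 wild type and the PANC-1 empty vector libraries 1 and 3, 26 members were within 2-fold, 9 were at least 2-fold lower in L3.6 and 1 at least 2-fold higher. Over all genes 25.1% were at least 2-fold lower and 27.6% higher. The widest gap was in FBL, with 43.3, 31.3 and 36.5 CPM in L3.6 wild type against 476 and 473 CPM in PANC-1, a log2 ratio of -3.68. TCOF1 was the member higher in L3.6, at 743, 709 and 645 CPM against 267 and 256 CPM. Since the rows may not count the same reads in both lines, these ratios need not be ratios of expression.

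The rest of the pathway was read from lists of other genes, none of them a member. Without PANC-1 empty vector replicate 2, 2 of 13 other RNA polymerase I genes were lower in K17 cells, the SL1 subunit TAF1B (-0.35, SE 0.0832, edgeR adjusted p = 0.0275) and TBP (-0.21), which serves all nuclear RNA polymerases. Of 37 other small subunit factors 7 were lower and 1 higher, among them TSR1 (-0.23, SE 0.0264, edgeR adjusted p = 0.00134) and UTP6 (-0.24). Of 46 other large subunit factors 10 were lower and 1 higher, among them BRIX1 (-0.23) and PA2G4 (-0.20). The exosome, which trims precursor RNA, had 3 of 13 lower (EXOSC2, EXOSC3 and its helicase MTREX). Of 9 other snoRNP genes RUVBL1 was lower and NOP10 higher. Against the 9.25% of all genes that were lower, the medians of these lists ran from -0.18 to -0.05, and that of all genes was 0.01.

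Ribosomal proteins, the partners of the precursor RNA, had 15 of 30 lower and 0 higher in the same fit, with a median of -0.17. Of all genes tested 9.25% were lower and 11.4% higher, and of those above 100 CPM 31.5% were lower and 19.3% higher. RPS3 had the lowest p of the 30 ribosomal proteins (-0.29, SE 0.0303, edgeR adjusted p = 0.000903), and RPL11, which also binds MDM2 when assembly fails, had -0.26. With all 6 libraries 0 of the 30 passed, though all 30 fold changes were below 0, with a median of -0.52. RNA polymerase III, which makes a small ribosomal RNA and transfer RNAs, had 2 of 13 lower (POLR3E and BDP1), and its repressor MAF1 was among those that were higher. MYC did not pass, with a fold change of 0.09, SE 0.063, while its partner MAX was higher (0.32, SE 0.0397, edgeR adjusted p = 0.00168), the only 1 of 10 genes of the MYC network to pass. With all 6 libraries none of the genes of these 8 lists passed.

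In L3.6 knockout cells MAX was lower (-0.38, SE 0.0687, edgeR adjusted p = 0.0126) and MYC did not pass (0.06, SE 0.0804). MAX was thus higher where K17 was present in both lines, in PANC-1 only with that replicate left out. Other list genes also passed in both of these fits. TSR1, EBNA1BP2, PELP1, MYBBP1A and RPS2 were lower where K17 was present in both lines. UTP6, DDX52, GTPBP4 and RPL27 were lower in L3.6 knockout cells and in PANC-1 K17 cells, on opposite sides with respect to K17. The share of all genes that passed in both fits was not counted, so these names are a description only. Over all genes tested in L3.6, 6.10% were higher and 3.51% lower. Of 46 other large subunit factors 3 were higher (MYBBP1A, PELP1 and EBNA1BP2) and 1 lower (GTPBP4), and of 35 small subunit factors 2 were higher (TSR1 and NOB1) and 2 lower (UTP6 and DDX52). MYBBP1A, which also represses RNA polymerase I, had 0.61, SE 0.0515 (edgeR adjusted p = 0.000358). Of 30 ribosomal proteins 4 were higher and 1 lower, with a median of 0.19 against -0.01 over all genes, and RPLP1, of the stalk, had 0.60, SE 0.0549 (edgeR adjusted p = 0.000543). POLR2E was the 1 of 14 other RNA polymerase I genes to pass, higher by 0.35.

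**Figure D5:**
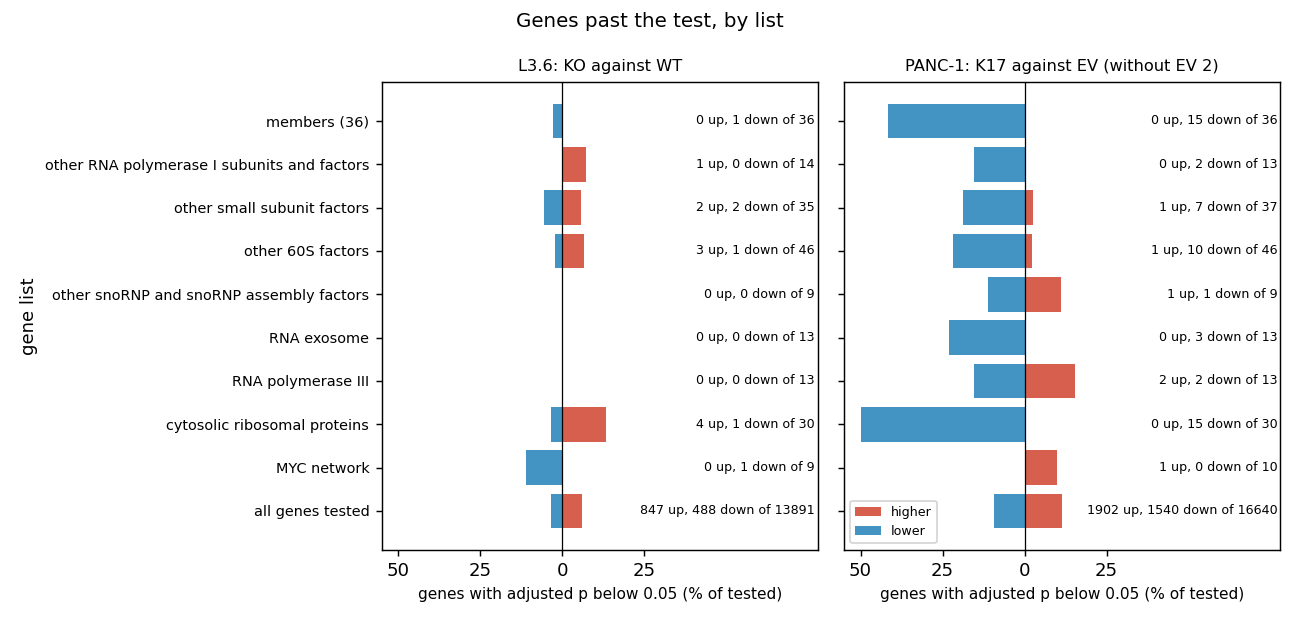
Share of the tested genes of each list that passed edgeR's test at an adjusted p of 0.05, higher (red, right of 0) or lower (blue, left of 0), in L3.6 knockout against wild type and in PANC-1 K17 against empty vector without replicate 2. The 36 members and the 30 ribosomal proteins have the longest bars to the left in PANC-1 and no gene to the right, while in L3.6 the bars of all lists are short.

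Among the 15 genes that were lower in PANC-1 K17 cells, 13 have a promoter window, and 4 of these (GNL3, FBL, BYSL and NOC3L) hold CACGTG. Of the 21 that did not pass, 16 have a window and 9 hold it. RRP9 and LTV1, which were not tested, also have windows that hold it. These counts are a description of few genes.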

How the data were processed

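TRIzol-extracted total RNA was sequenced from TruSeq libraries, per the labels' protocols. The deposited values are raw counts per gene, as whole numbers, and were used unchanged. Per the submitters' processing notes, bcl2fastq 1.8.4, STAR 2.7.3a, kallisto 0.46.2 and GRCh38 were used. The counting tool, its annotation, strand setting and treatment of multiply matching reads are not stated there, so overlapping genes and near-identical copies are uncertain. Names, positions and exon lengths are those of GENCODE 29, which named 34474 of 34505 rows.

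L3.6 and PANC-1 were fitted separately in R 4.3.3 with edgeR 4.0.16, using TMM factors, filterByExpr, robust glmQLFit and glmQLFTest. P-values were adjusted by Benjamini-Hochberg over every gene kept, with 0.05 as threshold. SE is the fold change over the square root of F, and 95% intervals use the t quantile of the same test. CPM uses TMM factors over the 12 human libraries. Precision follows library totals, from 9485257 to 70789559 counts. Replicate pairs differed beyond sampling noise (lowest chi-square per degree of freedom 5.1), so no library was merged with another. The code was tested on simulated data. Other settings tried were RLE factors, upper-quartile factors, no filter, a filter of 1 CPM in 3 libraries, DESeq2 1.42.0, limma-voom (limma 3.58.1), replicate number as a block, a joint fit of the 4 human groups, removal of the row AC010970.1, and removal of each library in turn.

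Members and lists were chosen with earlier results of these data known. Values by library are given for members that passed (the 12 of lowest p in a comparison), or for the 6 of lowest p where fewer passed, and for the member of highest CPM in each role group. UTP15, GNL3 and BYSL, which passed in PANC-1 outside these 12, were added after their values were seen. Mouse libraries were not used here.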

Additional observations from a re-analysis of the deposited data

Results flagged for a closer look

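The K17 effect differed between the lines for 2 of the 36 genes, by the test of the difference itself and with PANC-1 empty vector replicate 2 left out. For POLR1A the difference, K17 minus empty vector in PANC-1 minus wild type minus knockout in L3.6, was -0.42 on the log2 scale (SE 0.113, edgeR adjusted p = 0.0348). For GNL3 it was -0.56 (SE 0.143, edgeR adjusted p = 0.0271). With all 12 libraries the differences were 0.00 (SE 0.672) and -0.38 (SE 0.302), and neither passed. Among all genes 11.5% passed in either direction without that library, 2.82% below 0 and 8.72% above 0, and 1.54% passed in either direction with it.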

How the results depend on the processing

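Keeping PANC-1 empty vector replicate 2 turned the fold changes of POLR1A, POLR1B, RRN3 and UTP15 above 0. In L3.6 the count of members called, 1, was 2 with upper-quartile factors (PES1 and NOP56), 2 with DESeq2 (PES1 and NHP2), 0 in 1 fit of the 4 human groups and 0 to 3 with 1 library left out. Without a filter it stayed at 1 but the gene was NHP2. The median member fold change in L3.6 was -0.07 to 0.03 with 1 library left out. In PANC-1 the count of 0 became 15 without empty vector replicate 2 and stayed 0 under every other alternative. Without that replicate the count of 15 was 2 in 1 fit of the 4 human groups, and 8 to 15 with a further library left out, lowest without empty vector replicate 1. The count for the difference of K17 effects, 0, ran from 0 to 2 with 1 library left out (2 without PANC-1 empty vector replicate 2 and 1 without empty vector replicate 3). The same replicate number did not clearly pair libraries. Correlations of deviations in L3.6 were -0.09 to 0.01 for the same number against -0.06 to 0.10 for different numbers. In PANC-1 they were 0.01 to 0.08 for the same number against -0.07 to 0.06 for different numbers. With the number as a replicate block 0 members were called in L3.6 (PES1, adjusted p = 0.114), 0 in PANC-1 and 12 in PANC-1 without empty vector replicate 2. Of those 12, 10 are among the 15, with NPM1 and PES1 added, while TAF1D (adjusted p = 0.0595), RRN3 (adjusted p = 0.0515), GNL3, UTP15 and BYSL did not pass. Upper-quartile factors moved the split over all genes to 1549 higher and 2193 lower in PANC-1 without that replicate, against 1902 and 1540, and to 706 and 639 in L3.6, against 847 and 488. The causes of these moves were not tested. Depth limits the low rows, since BYSL, BOP1 and UTP20 had fewer than 10 counts or little more in some libraries.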
